A study of Rattus norvegicus with 32 samples.

Results

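The genes described here are the clade A serpins Serpina5, Serpina3c, Serpina1, Serpina3n, Serpina4, Serpina7, Serpina10 and Serpina11, relatives of the gene Serpina6 that was disrupted in this study. They were listed by symbol, with earlier results of these data known, by a rule with no threshold on any measured value, and Serpina6 itself was left out. Of the 8 listed genes, 7 had a row in the count table of 17327 genes and 6 had enough reads to be tested. Serpina7 had no row under that symbol and was not analysed here.

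Serpina6 encodes corticosteroid-binding globulin (CBG), the plasma carrier of glucocorticoids. The series compared livers of CBG knockout rats (KO, Cbg-/-), in which the gene had been ablated with CRISPR/Cas9, with livers of wild-type rats (WT, Cbg+/+). All animals were Charles River Sprague Dawley rats under basal conditions, and the comparisons below ask whether relatives or chromosomal neighbours of the target changed with it. The 8 groups of 4 libraries were KO and WT females at 30 days, KO and WT males at 30 days, KO and WT females at 60 days, and KO and WT males at 60 days of age. The labels do not say how many founder lines the KO rats came from. They call each library a separate sample and say no more of the animals, so the p-values measure the spread between these samples.

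Serpins are serine protease inhibitors that trap their target protease through an exposed reactive loop, and some clade A members carry hormones instead of inhibiting proteases. Most clade A serpins are secreted by hepatocytes into plasma, and in mammals many of their genes stand side by side in one chromosomal cluster. In rats, serpins of the A3 group were first known as growth hormone-regulated liver inhibitors. In the RefSeq gene order of the rat assembly GRCr8 the cluster lies on chromosome 6, and Serpina7 alone of the 8 lies on chromosome X. Serpina10 stands directly before Serpina6, with no annotated gene between them. After Serpina6 come Serpina16, 3 genes of the Serpina1f group, Serpina1, Serpina11, Serpina9, Serpina12, Serpina4, Serpina5, Serpina3m, Serpina3c, Serpina3l and Serpina3n, with a few other A3 genes among the last ones. Serpina4 and Serpina5 are next to each other and on the same strand.

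Reads counted on genes came to 12951969 to 21954929 in a library, 16806943 to 21954929 at 30 days and 12951969 to 17133332 at 60 days. Levels below are in CPM, read counts scaled to a common library size, and levels of different genes are not comparable, since gene lengths were not used. Serpina6 in KO livers came to 6.24% to 12.9% of its WT mean in the 4 combinations of sex and age, and no KO library reached a WT library of its combination. Replicate 1 of the 60-day KO females stood apart, with 2039 CPM summed over 11 measured photoreceptor genes, against 2.89 to 9.83 CPM in the other 31 libraries. Each result of a single gene that rests on it is given with the value without it where that changed a call. The libraries were of whole liver, so fewer cells of a type and less RNA per cell cannot be told apart.

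Serpina5, the protein C inhibitor, was the member that stood higher in KO livers throughout. Its protein inhibits activated protein C and other serine proteases; human liver makes it, while in mice it is known mainly from reproductive organs. At 30 days the KO females had 3.22, 6.33, 4.02 and 4.15 CPM, against 0.8294, 0.262, 0.400 and 1.36 CPM in WT females. The KO males of that age had 5.31, 4.05, 5.66 and 7.13 CPM, against 3.46, 3.65, 1.28 and 3.34 CPM in WT males. In both sexes every KO library lay above every WT library, by a wide margin in females and a narrow one in males, as 3.70% of all genes did in females and 2.94% in males. At 60 days the KO females had 5.47, 2.77, 2.83 and 2.14 CPM, against 0.866, 1.21, 0.0651 and 0.769 CPM in WT females. The KO males had 4.50, 6.88, 4.83 and 4.83 CPM, against 1.46, 2.18, 2.16 and 2.30 CPM in WT males. Here too every KO library lay above the WT libraries, as 4.48% of all genes did in females and 2.21% in males. These are low levels: the counts behind them ran from 32 to 146 reads in KO libraries and from 1 to 69 reads in WT libraries.

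**Figure D1:**
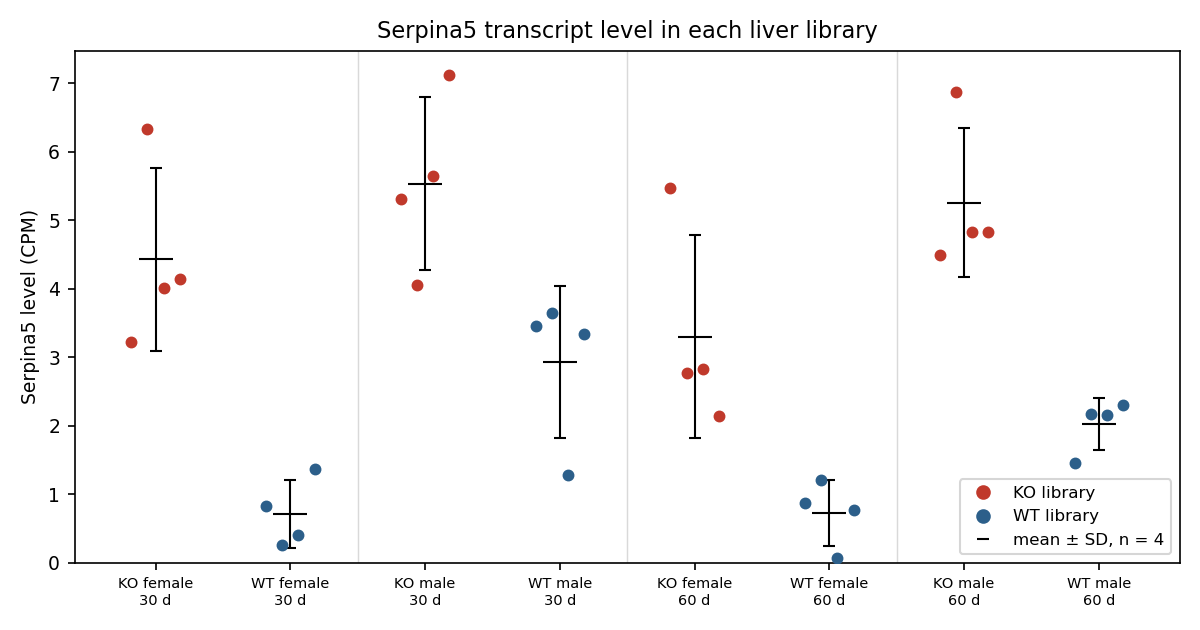
Serpina5 level in CPM (vertical axis) in each of the 32 liver libraries, by genotype, sex and age, with the mean and SD of each group of 4. KO libraries (red) lie above the WT libraries (blue) beside them in all 4 combinations, and WT females are the lowest groups, with means of 0.714 CPM at 30 days and 0.728 CPM at 60 days.

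The log2 fold change of Serpina5, KO over WT, was 2.63 ± 0.42 (SE; edgeR adjusted p = 0.00286) in 30-day females and 2.18 ± 0.46 (adjusted p = 0.00407) in 60-day females. Both calls held when any 1 of the 8 libraries compared was left out. In males it was 0.92 ± 0.35 at 30 days (unadjusted p = 0.0140, adjusted p = 0.659) and 1.38 ± 0.38 at 60 days (unadjusted p = 0.00123, adjusted p = 0.153), and neither passed the threshold over all genes. The difference between the sexes did not pass either: males minus females it was −1.70 ± 0.55 at 30 days (adjusted p = 0.811) and −0.80 ± 0.60 at 60 days (adjusted p = 0.698). A larger effect in females was therefore not shown. The age-by-genotype term was −0.45 ± 0.64 in females and 0.45 ± 0.52 in males, and neither was called.

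Averaged over the 4 combinations, a contrast added after the values were seen, Serpina5 was higher in KO livers by 1.78 ± 0.20 on the log2 scale (edgeR adjusted p = 3.78e-06). It ranked 4 of 11002 genes by p-value, after Serpina6 itself, Tmem38b and Nrbp2, and it was called in 32 of 32 fits that each left out 1 library. Of the 11002 genes tested, 1 (0.00909%) was higher in KO without overlap in all 4 combinations, and that gene was Serpina5. Also 1 gene (0.00909%) was lower without overlap in all 4, and it was Serpina6.

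All KO against WT results in 30-day females, and the terms that use them, have a limit in the sample titles, given here for Serpina5. All KO females of that age carry the number 2 at the end of their title, as does replicate 4 of the WT females, while WT replicates 1 to 3 carry the number 1. WT replicate 4 had the highest Serpina5 level of the 4 WT females, 1.36 CPM, still below the lowest KO female at 3.22 CPM. In 30-day males too, libraries with the number 2 stood highest in their group. WT replicates 1 and 2 had 3.46 and 3.65 CPM, against 1.28 and 3.34 CPM with the number 1. KO replicate 4 had 7.13 CPM, against 4.05 to 5.66 CPM with the number 1. With that number as a covariate in the 16 libraries of 30 days the log2 fold change was 2.13 and the edgeR adjusted p was 0.0579. Among 30-day KO rats the number also goes with sex, since all females carry the number 2 and male replicates 1 to 3 carry the number 1. The comparison of the sexes in 30-day KO rats therefore has the same limit. No label explains that number, and the 60-day titles carry none. In 30-day females the summed level of 7 hepatocyte markers also differed, 190270 to 217113 CPM in KO against 218227 to 239801 CPM in WT. So did 7 stellate cell markers, 861 to 1002 CPM in KO against 1054 to 1436 CPM in WT, with 1 of the 7 at 0 throughout. In 60-day females the stellate markers stood the other way, 443 to 473 CPM in KO against 273 to 441 CPM in WT. The part of these shifts in the Serpina5 result was not tested.

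Among WT livers Serpina5 was higher in males. WT males averaged 2.93 ± 1.11 CPM and WT females 0.714 ± 0.497 CPM at 30 days (SD, n = 4 each), a log2 difference of 2.02 ± 0.43 (edgeR adjusted p = 0.00739). At 60 days WT males averaged 2.03 ± 0.38 CPM and WT females 0.728 ± 0.480 CPM, a log2 difference of 1.48 ± 0.48 (adjusted p = 0.0205). The 30-day groups overlapped and the 60-day groups did not. Without replicate 3 of the 60-day WT females, which had a single Serpina5 read, the 60-day adjusted p was 0.0850. In KO livers the sex difference was 0.32 ± 0.34 at 30 days and 0.68 ± 0.37 at 60 days, neither past the threshold. No difference between 60 and 30 days was called for Serpina5 in any sex and genotype.

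Ordered by mean, the Serpina5 levels ran from KO males at 30 days (5.54 CPM) through KO males at 60 days (5.26 CPM), KO females at 30 days (4.43 CPM) and KO females at 60 days (3.30 CPM) to WT males at 30 days (2.93 CPM). WT males at 60 days (2.03 CPM), WT females at 60 days (0.728 CPM) and WT females at 30 days (0.714 CPM) came last. Each group overlapped the next one in this order except WT males at 60 days, whose libraries all lay above those of WT females at 60 days.

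Serpina4, the gene next to Serpina5, did not move with it. It encodes kallistatin, named in humans for its inhibition of tissue kallikrein. Within a library, the ratio of Serpina5 to Serpina4 reads, which holds no correction for length and serves only to compare libraries, was 0.520% to 1.43% in KO libraries and 0.0176% to 0.762% in WT libraries. The promoters of this pair are printed because neighbouring genes on one strand behaved differently. Both are RefSeq sequences of GRCr8, from 250 bases before to 50 bases after an annotated start. Matches to any of 6 motifs are in capitals.

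Serpina5 (chr6:128787831-128788130, + strand): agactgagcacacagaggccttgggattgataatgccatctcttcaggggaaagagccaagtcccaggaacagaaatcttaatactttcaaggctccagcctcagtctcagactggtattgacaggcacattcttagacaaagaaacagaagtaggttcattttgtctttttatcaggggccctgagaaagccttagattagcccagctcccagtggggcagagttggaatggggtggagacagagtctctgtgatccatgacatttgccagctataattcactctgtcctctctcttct
Serpina4 (chr6:128764532-128764831, + strand): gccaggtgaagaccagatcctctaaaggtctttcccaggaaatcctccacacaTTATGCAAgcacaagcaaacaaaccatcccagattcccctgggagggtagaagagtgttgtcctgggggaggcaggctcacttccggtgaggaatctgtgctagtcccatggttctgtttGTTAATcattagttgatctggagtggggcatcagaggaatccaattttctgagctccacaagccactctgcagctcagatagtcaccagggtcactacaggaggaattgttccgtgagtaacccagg

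The motifs searched were STAT5 (TTCNNNGAA), C/EBP (TTGCNNAA), HNF1 (GTTAAT), HNF4 (CAAAGTCCA) and the glucocorticoid receptor (AGAACA) on both strands, and a TATA box (TATAAA) on the gene's strand. Of 33469 rat promoter windows of this length, 8.87% held the STAT5 letters, 10.6% the C/EBP letters, 7.45% the HNF1 letters, 0.391% the HNF4 letters, 20.7% the glucocorticoid receptor letters and 8.80% the TATA letters. The Serpina4 window held a C/EBP match on the opposite strand from −197 to −190 and an HNF1 match from −77 to −72, counted from the start. The Serpina5 window held none of the 6. Serpina5 has several RefSeq transcripts, the window belongs to a start inside the gene's span, and which start these livers used was not examined here. Windows were on hand for 6 of the 8 listed genes, not for Serpina3c and Serpina10.

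In KO against WT, no call was made for Serpina4, Serpina1 or Serpina11 in any combination. Serpina1 encodes alpha-1-antitrypsin, the main plasma inhibitor of neutrophil elastase. Log2 fold changes, KO over WT, ran from −0.16 to 0.12 for Serpina4, from −0.14 to −0.01 for Serpina1 and from −0.04 to 0.08 for Serpina11. In all 4 combinations the KO and WT libraries of these genes overlapped. The widest 95% intervals still allowed differences of up to −0.42 and 0.38 for Serpina4, −0.33 and 0.18 for Serpina1, and −0.25 and 0.29 for Serpina11. The lowest count of the 3 genes in any library was 1823 reads.

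**Figure D2:**
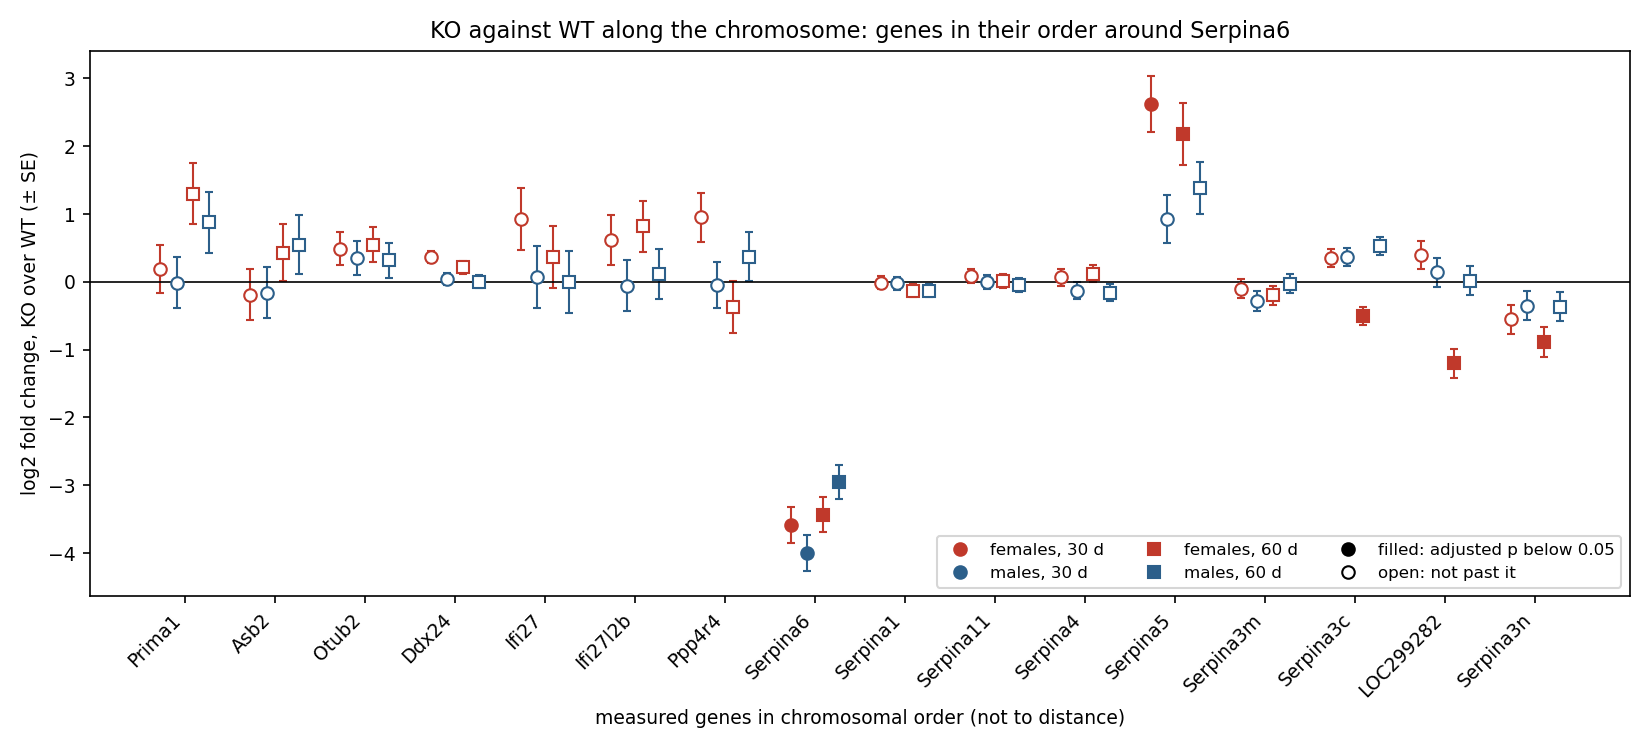
Log2 fold change, KO over WT, with its SE (vertical axis) for the measured genes around Serpina6, in chromosomal order but not to distance, for the 4 combinations of sex and age. Filled symbols passed an adjusted p below 0.05. Serpina6 is low and Serpina5 high in all 4, while Serpina1, Serpina11 and Serpina4, which lie between them, stay between −0.16 and 0.12.

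Counting all 6 tested members, 1 was called, and higher, in 30-day females, where 0.300% of all genes were called and 0.118% higher, and 0 in 30-day males, where 0.0545% were. In 60-day females 3 were called, 1 higher and 2 lower, where 6.77% of all genes were called, 3.48% higher and 3.29% lower. In 60-day males 0 were called, where 0.209% of genes were. At an unadjusted p below 0.05 Serpina5 and Serpina3c stood in each male comparison, where 5.94% of genes at 30 days and 10.8% at 60 days did. The members' median log2 fold change was 0.07 in 30-day females, −0.01 in 30-day males, −0.06 in 60-day females and −0.09 in 60-day males. The median of all genes was 0.01, 0.00, 0.01 and 0.00.

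Other genes beside the target were not called either. Of the 15 non-member neighbours with a row among the 15 genes on each side of Serpina6, 8 were tested and 0 passed in any of the 4 KO against WT comparisons or in their average. At an unadjusted p below 0.05 Ddx24 and Ppp4r4 stood in 30-day females, where 10.7% of all genes did, and Prima1, Otub2, Ddx24 and Ifi27l2b in 60-day females, where 20.8% did. None of the 8 did so in males. Ddx24, an RNA helicase, had 0.37 ± 0.09 in 30-day females (edgeR adjusted p = 0.0688). In the averaged contrast Ddx24 had 0.16 ± 0.05 (adjusted p = 0.0528) and Otub2 0.43 ± 0.13 (adjusted p = 0.0594). The 8 had a median log2 fold change of 0.43 in 30-day females and 0.40 in 60-day females, against −0.03 in 30-day males and 0.22 in 60-day males. Serpina10, the inhibitor that works with protein Z on coagulation factor X and the nearest gene to Serpina6, was listed at 0 in all 32 libraries. A count of 0 allows up to 3 reads, or 0.137 to 0.232 CPM by library before scaling, for counting error only. As the gene is known to be made in liver, the zeros may not be its level, and no comparison was made.

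The KO effect on Serpina3c differed between the sexes at 60 days, with KO livers lower in females and higher in males by mean. It encodes the kallikrein-binding protein, and its reads may be shared with the near-identical A3 genes, so its single values are uncertain to that extent. At 30 days the KO females had 4380, 4338, 4522 and 4192 CPM, against 3304, 3362, 3421 and 3584 CPM in WT females. KO males of that age had 4977, 5079, 4672 and 4783 CPM, against 3784, 3439, 4275 and 3635 CPM in WT males. At 30 days KO livers were thus above WT livers without overlap in both sexes, as were 3.70% of all genes in females and 2.94% in males. At 60 days the KO females had 2705, 3203, 2894 and 2541 CPM, against 2886, 2892, 4528 and 5770 CPM in WT females. KO males had 5435, 4699, 5029 and 5546 CPM, against 3345, 3605, 4038 and 3354 CPM in WT males. The 60-day KO females overlapped the WT females, of which replicates 3 and 4 were high, while the KO males lay above the WT males without overlap, as 2.21% of all genes did.

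The log2 fold change of Serpina3c at 30 days was 0.35 ± 0.14 in females and 0.37 ± 0.14 in males, with edgeR adjusted p of 0.321 and 0.631. At 60 days it was −0.50 ± 0.14 in females (adjusted p = 0.0227) and 0.53 ± 0.14 in males (adjusted p = 0.113). DESeq2 called it in 60-day males (adjusted p = 0.0284), and fits to the 16 libraries of 30 days called it in both sexes (adjusted p = 0.0374 in females and 0.0437 in males). With the title number as covariate in those 16 libraries, Serpina3c was not called in either sex. The call in 60-day females was lost without WT replicate 3 (−0.44, adjusted p = 0.0733), WT replicate 4 (−0.28, adjusted p = 0.171), KO replicate 1 (−0.48, adjusted p = 0.0670) or KO replicate 4 (−0.46, adjusted p = 0.0646). It was also lost in the 16 libraries of 60 days (adjusted p = 0.138) and on the deposited log2 values (adjusted p = 0.0548).

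In the main fit the change of Serpina3c differed by sex at 60 days and by age in females. Males minus females at 60 days, it was 1.03 ± 0.19 (edgeR adjusted p = 0.0159), 1 member of 6 where 0.136% of all genes were called. At 30 days the same term was 0.02 ± 0.19, and 0 members were called where 0% of genes were; Serpina5 alone of the 6 had an unadjusted p below 0.05, where 5.51% of genes did. The 60-day term was lost without WT female replicate 3 (adjusted p = 0.0537) and in the 16 libraries of that age (adjusted p = 0.278). In females, 60 minus 30 days, the change differed by −0.85 ± 0.19 (adjusted p = 0.0132), 1 member of 6 where 2.96% of all genes were called. That term held in 16 of 16 fits without 1 library, and its adjusted p was 0.0935 in the 16 female libraries. In males the age-by-genotype term was called for 0 members, where 0.00909% of genes were, and no member had an unadjusted p below 0.05, where 5.34% of genes did.

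By mean, Serpina3n stood lower in KO livers in all 4 combinations. It belongs to the same A3 group, and its mouse namesake is known as an acute-phase inhibitor induced in liver by glucocorticoids and cytokines. At 30 days KO females had 1143, 1335, 1461 and 1187 CPM, against 1675, 2351, 2277 and 1203 CPM in WT females. KO males had 1147, 1368, 1387 and 1482 CPM, against 1373, 1380, 2632 and 1502 CPM in WT males. The 30-day groups overlapped in both sexes, and WT male replicate 3 stood far above the other WT males. At 60 days KO females had 958, 1361, 1191 and 1017 CPM, against 1636, 1848, 3183 and 1697 CPM in WT females. KO males had 2327, 2578, 2000 and 2920 CPM, against 3654, 3092, 3008 and 2946 CPM in WT males. At 60 days no KO library reached a WT library of its sex, which 3.94% of all genes showed in this direction in females and 2.68% in males.

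The log2 fold change of Serpina3n was −0.89 ± 0.22 in 60-day females (edgeR adjusted p = 0.0121). It was −0.55 ± 0.21 in females and −0.36 ± 0.21 in males at 30 days, with adjusted p of 0.325 and 0.877, and −0.37 ± 0.21 in 60-day males with 0.558. Without WT replicate 3 the 30-day male value was −0.08. The call in 60-day females was lost without WT replicate 3 (−0.61, adjusted p = 0.0730) or without KO replicate 1 (−0.81, adjusted p = 0.0536). Averaged over the 4 combinations Serpina3n was lower by −0.54 ± 0.11 (adjusted p = 0.00513), rank 57 of 11002 genes, and was called in 32 of 32 fits without 1 library. With Serpina5 this made 2 members called in the averaged contrast, where 3.12% of all genes were. None of its differences between sexes or ages in the KO effect was called.

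**Figure D3:**
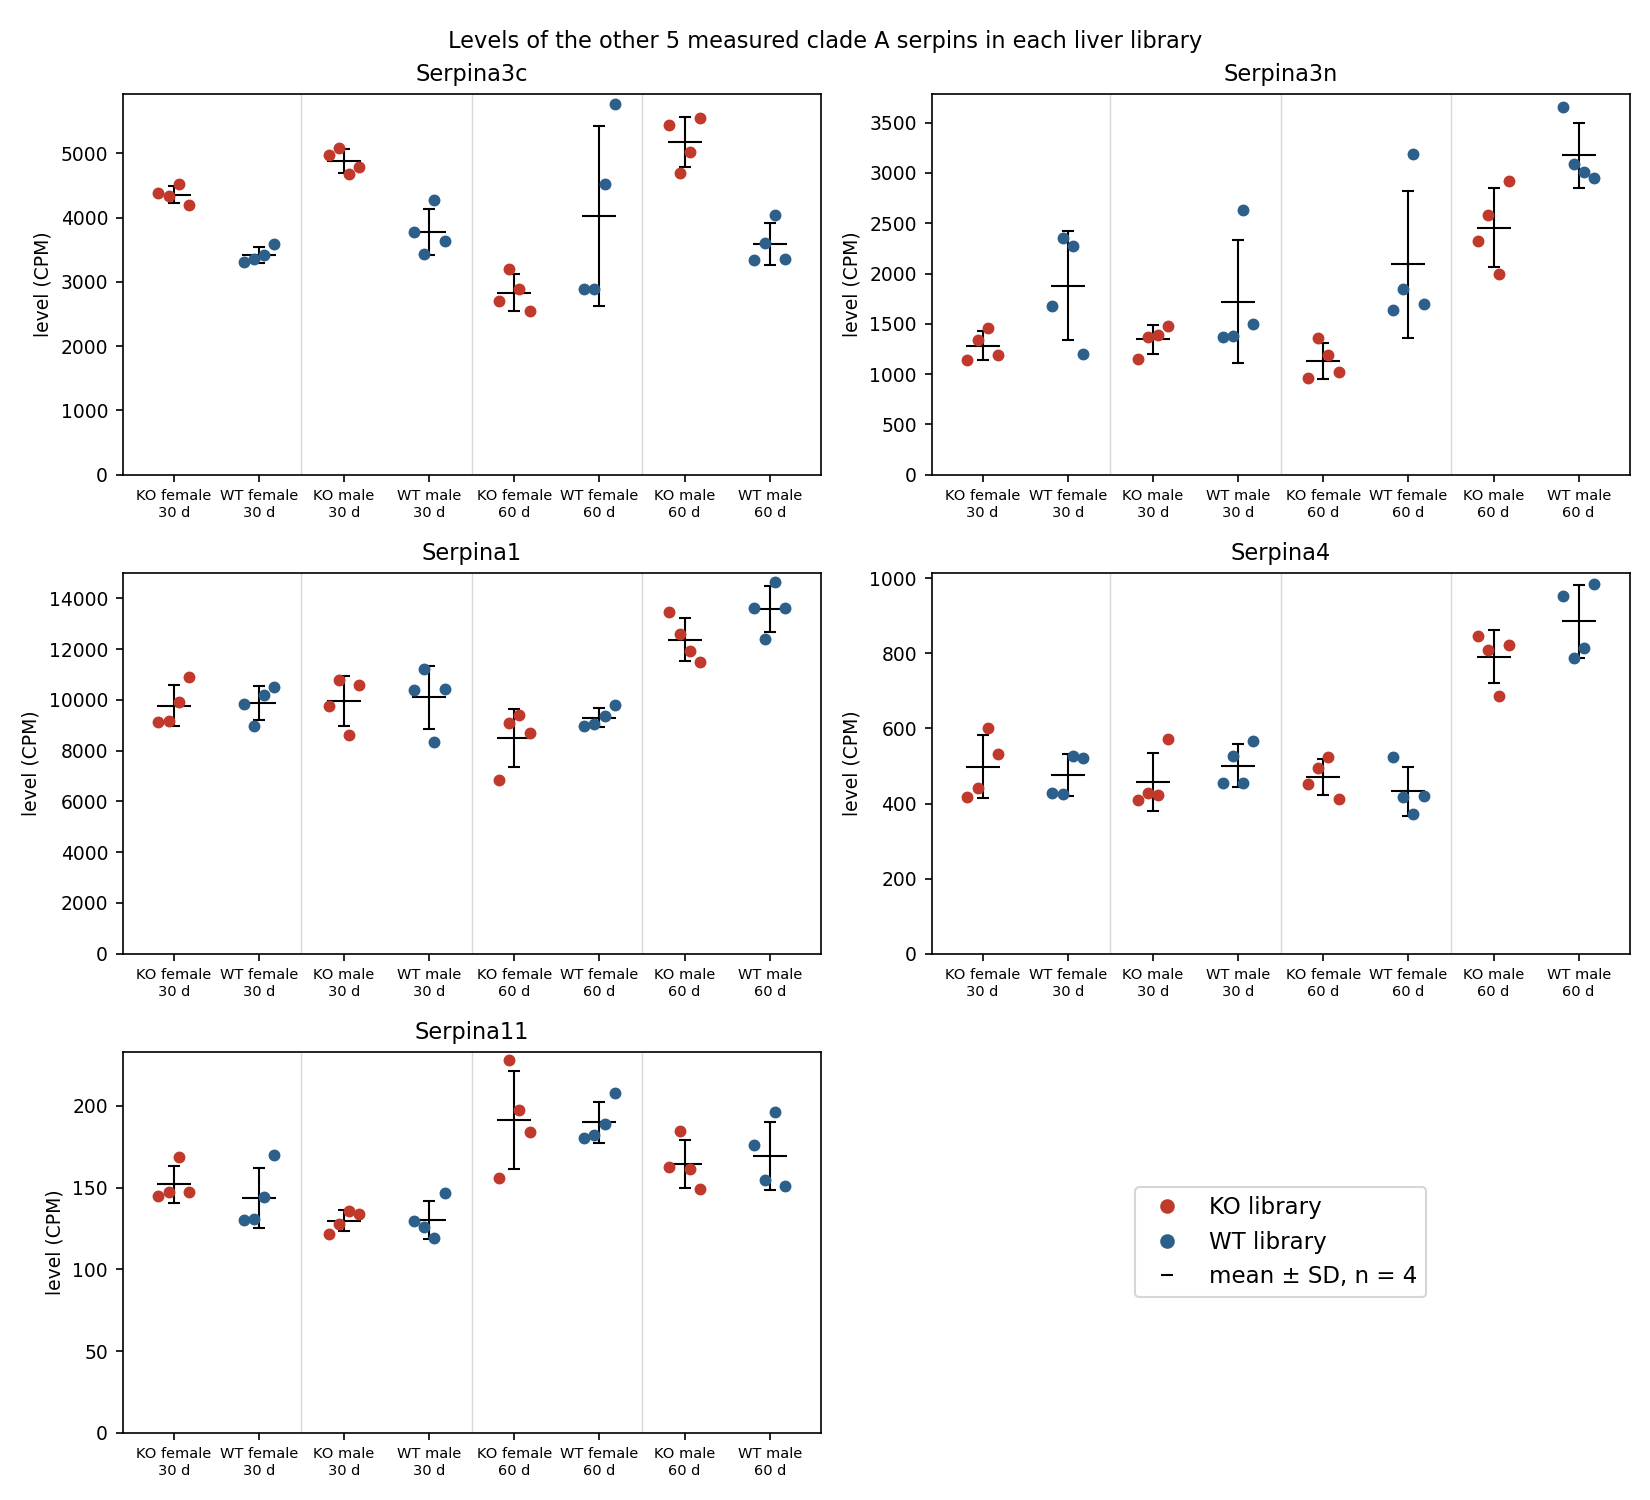
Levels in CPM (vertical axes, from 0) of Serpina3c, Serpina3n, Serpina1, Serpina4 and Serpina11 in each liver library, by genotype, sex and age, with the mean and SD of each group of 4. By mean, Serpina3c stands lowest in 60-day KO females and highest in 60-day KO males, and Serpina3n stands lower in KO than in WT beside it in each pair of means.

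Another A3 gene, listed as LOC299282 and named Serpina3l in RefSeq by its gene ID, was singled out after its values were seen because it lies between Serpina3c and Serpina3n. In 60-day females it had 570, 673, 490 and 455 CPM in KO livers, against 950, 758, 1144 and 2182 CPM in WT livers. The groups did not overlap, and the log2 fold change was −1.20 ± 0.21 (edgeR adjusted p = 0.000987), called in 8 of 8 fits without 1 library. Without WT replicate 4, the highest library, it was −0.80 (adjusted p = 0.00414). In the other combinations it was 0.40 in 30-day females, 0.14 in 30-day males and 0.02 in 60-day males, with no call. Its age-by-genotype term in females was −1.60 ± 0.30 (adjusted p = 0.00391), and its sex-by-genotype term at 60 days was 1.22 ± 0.30 (adjusted p = 0.0943). The age term was not called in the 16 female libraries (adjusted p = 0.0616), and DESeq2 called the sex term (adjusted p = 0.0141). Of 16 edgeR fits without 1 library, 2 called the sex term. Without 60-day WT female replicate 4 it was 0.82 (edgeR adjusted p = 0.190). Serpina3m, on the near side of Serpina3c, was not called in any KO against WT comparison, with −0.20 ± 0.14 in 60-day females. Within groups, the levels of LOC299282 and Serpina3c went together with a Pearson r of 0.71, and of 0.77 with group means kept, over the 32 libraries, which shared depth and library of origin. Reads shared between A3 genes could not be parted. Their part in this r and in the LOC299282 levels was not tested.

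The promoters of Serpina3n and Serpina3l are printed because both genes were lower in 60-day KO females and because their sequences are alike, with 84.0% identity over 257 aligned bases. The 300-base windows are RefSeq sequences of GRCr8, with matches to the 6 motifs in capitals.

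Serpina3n (chr6:129088142-129088441, + strand): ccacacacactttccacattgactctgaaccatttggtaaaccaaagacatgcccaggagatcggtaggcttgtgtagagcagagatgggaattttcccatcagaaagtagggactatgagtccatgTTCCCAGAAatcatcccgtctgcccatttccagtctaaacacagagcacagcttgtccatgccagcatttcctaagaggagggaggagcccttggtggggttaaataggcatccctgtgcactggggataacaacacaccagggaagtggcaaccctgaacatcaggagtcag
Serpina3l (chr6:129062956-129063255, + strand): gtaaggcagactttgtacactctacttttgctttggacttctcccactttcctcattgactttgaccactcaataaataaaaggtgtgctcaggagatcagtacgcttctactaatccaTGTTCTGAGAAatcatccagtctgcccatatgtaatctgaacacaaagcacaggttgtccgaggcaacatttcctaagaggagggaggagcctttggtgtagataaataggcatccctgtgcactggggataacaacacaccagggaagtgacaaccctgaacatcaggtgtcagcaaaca

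Both held the STAT5 letters at a similar place, from −123 to −115 in Serpina3n and from −129 to −121 in Serpina3l. In Serpina3l a glucocorticoid receptor match on the opposite strand, from −131 to −126, overlapped the STAT5 match. Serpina11, not called in KO against WT, also held the STAT5 letters, from −14 to −6. The Serpina3m window had 83.8% identity with that of Serpina3n. For comparison, windows of members outside the A3 group aligned with that of Serpina3n at 58.1% to 60.8% identity.

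The sexes differed in 60-day livers for most members. Of the 6 tested, 4 were higher in males among 60-day KO rats, where 18.5% of all genes were called and 9.63% higher in males. Among 60-day WT rats 4 were higher in males, where 26.4% of genes were called and 13.7% higher. At 30 days 0 were called in KO rats, where 2.24% of genes were, and 1, Serpina5, in WT rats, where 2.07% were. Serpina11 alone of the 6 had an unadjusted p below 0.05 between the sexes in 30-day KO rats, where 13.2% of genes did. In 30-day KO rats, sex cannot be told apart from most of the title number described above.

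Serpina4 had 687 to 846 CPM in 60-day KO males (median 816), against 411 to 524 CPM in KO females (median 473). It had 788 to 985 CPM in WT males (median 883), against 371 to 524 CPM in WT females (median 419). The sexes did not overlap in either genotype, with log2 differences, males over females, of 0.75 ± 0.13 in KO and 1.03 ± 0.13 in WT (edgeR adjusted p = 5.27e-05 and 2.68e-07). For Serpina1 the differences were 0.54 ± 0.10 in KO and 0.55 ± 0.10 in WT, again without overlap. Its lowest level of all, 6832 CPM, was in replicate 1 of the 60-day KO females, and the call in KO held in 8 of 8 fits without 1 library.

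Serpina3n was higher in 60-day KO males than in KO females by 1.12 ± 0.22 (edgeR adjusted p = 0.000349). Among WT rats the difference was 0.60 ± 0.21 (adjusted p = 0.0372), the groups overlapped, and the call held in 2 of 8 fits without 1 library, with an adjusted p of up to 0.116. Serpina3c was higher in 60-day KO males than in KO females by 0.87 ± 0.14 (adjusted p = 1.94e-05), without overlap, and its difference in WT rats was −0.16 ± 0.14. LOC299282 was higher in 60-day KO males by 1.59 ± 0.21 (adjusted p = 2.65e-06), and its WT difference of 0.37 ± 0.21 was not called. Without WT female replicate 4, its highest library, the WT difference was 0.78 and was called (edgeR adjusted p = 0.000673). A sex difference of LOC299282 in KO rats only was therefore not shown. Serpina3m was higher in 60-day males of both genotypes, by 1.22 ± 0.14 in KO and 1.05 ± 0.14 in WT.

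Most members were higher in 60-day than in 30-day males. The ages also differ in the form of the sample titles and in read depth. Scaling factors of the libraries were 0.988 to 1.11 at 30 days and 0.901 to 1.01 at 60 days. Age therefore cannot be told apart from any difference in handling that went with it. Of the 6, 4 were higher at 60 than at 30 days in KO males, where 28.4% of all genes were called and 14.0% higher, and the same 4 in WT males, where 31.5% were called and 15.7% higher. These were Serpina1, Serpina3n, Serpina4 and Serpina11. In females 2 were called in KO rats, where 22.7% of genes were, and 1 in WT rats, where 33.1% were. Serpina4 was higher by 0.79 ± 0.13 in KO males and 0.82 ± 0.13 in WT males, and Serpina3n by 0.87 ± 0.22 and 0.88 ± 0.22. Serpina1 was higher by 0.31 ± 0.10 in KO males and 0.43 ± 0.10 in WT males; the KO call was lost without KO replicate 3 of 30 days or KO replicate 1 of 60 days (adjusted p up to 0.0677), and on the deposited log2 values it was 0.12 (adjusted p = 0.352).

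Serpina11 was the member called higher at 60 days in every sex and genotype, by 0.33 ± 0.10 in KO females, 0.40 ± 0.10 in WT females, 0.34 ± 0.10 in KO males and 0.38 ± 0.10 in WT males. Its levels at 60 days were 156 to 228 CPM in KO females and 181 to 208 CPM in WT females. At 30 days they were 145 to 169 CPM in KO females and 130 to 170 CPM in WT females. Without replicate 2 of the 60-day KO rats of the same sex the call was lost in KO females (edgeR adjusted p = 0.106) and in KO males (adjusted p = 0.0520). On the deposited log2 values, which carry no scaling between libraries, the increase was 0.17 in KO females, 0.15 in KO males and 0.21 in WT males, none called there. Serpina3c fell by 0.62 ± 0.14 in KO females on the log2 scale (adjusted p = 0.00111), without overlap between ages. On the deposited log2 values Serpina1 was also called lower at 60 days in KO females (−0.36, adjusted p = 0.00947), against −0.20 ± 0.10 and no call from the counts.

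**Figure D4:**
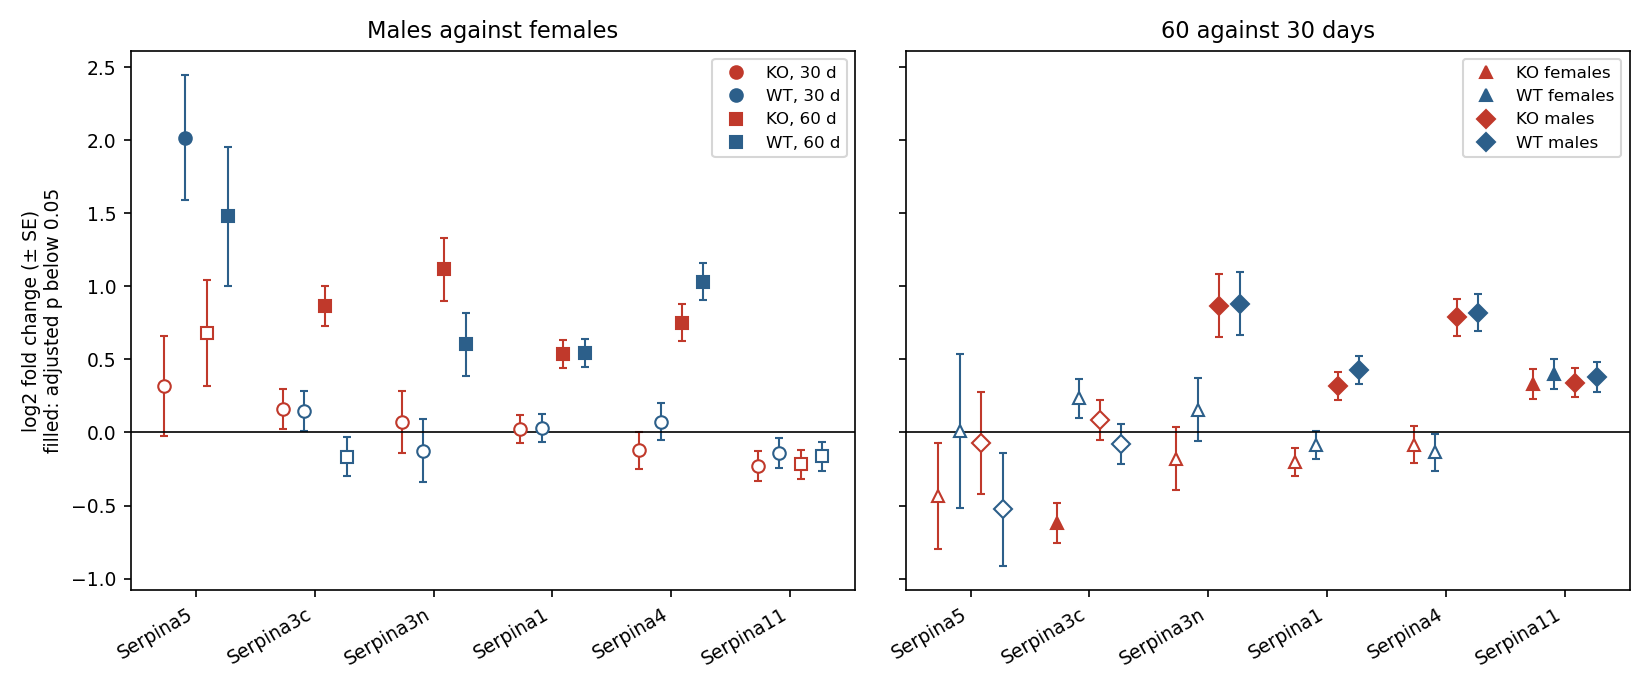
Log2 fold change with its SE (vertical axis) of the 6 tested members, males over females on the left (KO and WT at 30 and 60 days) and 60 over 30 days on the right (KO and WT females and males). Filled symbols passed an adjusted p below 0.05. Serpina4 reaches 1.03 in 60-day WT males over females, and Serpina11 is filled in all 4 age comparisons.

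The order of group means differed between the members. Serpina1 and Serpina4 were highest in WT males at 60 days (13579 and 885 CPM) and next in KO males at 60 days (12365 and 791 CPM), which overlapped each other and lay above the next group. The remaining 6 groups of each gene overlapped one after the other, from 10095 to 8509 CPM for Serpina1 and from 501 to 433 CPM for Serpina4. Serpina11 ran from KO females at 60 days (191 CPM) to KO males at 30 days (130 CPM), with every group overlapping the next. Serpina3n was highest in WT males at 60 days (3175 CPM), which lay above KO males at 60 days (2456 CPM), and lowest in KO females at 60 days (1132 CPM), with every other neighbour in the order overlapping. Serpina3c ran from KO males at 60 days (5177 CPM) to KO females at 60 days (2836 CPM). In that order KO males at 30 days (4878 CPM) lay above KO females at 30 days (4358 CPM), WT females at 30 days (3418 CPM) lay above KO females at 60 days, and the other neighbours overlapped.

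The other serpins were 29 further rows of the count table whose symbols begin with Serpin. LOC299282, called lower in 60-day KO females as given above, is therefore not among them. Of these 29 rows, 14 were tested and 0 were called in any of the 4 KO against WT comparisons. Their median log2 fold change ran from −0.07 to 0.06. Among 22 tested proteases and partners of the members, 1 was lower in 30-day KO males, Klkb1, which encodes plasma kallikrein, by −0.39 ± 0.07 (edgeR adjusted p = 0.0158), where 0.0273% of all genes were called lower. That call was lost without KO replicate 1, 2 or 3 or WT replicate 3 or 4, with an adjusted p of up to 0.0926, and on the deposited log2 values (adjusted p = 0.0632). Also 1 was lower in 60-day KO females, F9, coagulation factor IX, by −0.38 ± 0.08 (adjusted p = 0.00576), where 3.29% of all genes were called lower. Among 19 transcription factors of liver serpin genes, 1 was called, Cebpb in 60-day males, lower in KO by −1.01 ± 0.17 (adjusted p = 0.00792; 0.0614 without KO replicate 1), where 0.155% of all genes were called lower. Of 12 tested hormone and vitamin carriers 0 were called in the 4 comparisons. In the averaged contrast Klkb1 was lower by −0.13 ± 0.04 (edgeR adjusted p = 0.0455), called in 11 of 32 fits without 1 library. The carrier Tf was lower there by −0.13 ± 0.03 (edgeR adjusted p = 0.0308). It was not called on the deposited log2 values (limma adjusted p = 0.334). That contrast called 3.12% of all genes, and 0 of these other serpins and transcription factors.

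Acute-phase genes were lower alongside Serpina3n in 60-day KO females. Of 21 tested, 9 were called lower and 0 higher, where 3.29% of all genes were called lower, with a median log2 fold change of −0.36 against 0.01 for all genes. The count of 9 was not recomputed without KO replicate 1, where 399 of all genes were called in place of 745. The 4 genes named next were each called in 8 of 8 fits without 1 library. The serum amyloid gene Saa4 was lower by −1.07 ± 0.13 (edgeR adjusted p = 9.77e-06), and Orm1, orosomucoid, by −1.88 ± 0.29 (adjusted p = 0.000223). Il6st, a receptor subunit for interleukin-6-type cytokines, was lower by −0.73 ± 0.12, and Itih3, an inter-alpha-inhibitor chain, by −0.41 ± 0.08. In the other 3 combinations 0 of the 21 were called. Averaged over the 4 combinations, 7 of the 21 were called lower, Saa4, Orm1, Hp and Fga among them, and 0 higher. In that contrast 3.12% of all genes were called. At 60 days the sex-by-genotype term was called for 0 of the 21, where 0.136% of all genes were. A decrease confined to females was therefore not shown. In females the age-by-genotype term was called lower for 4 of the 21, where 2.96% of all genes were called. Other markers also stood apart in 60-day females: 5 neutrophil markers summed to 2.06 to 4.55 CPM in KO against 1.01 to 1.73 CPM in WT, and 4 cholangiocyte markers to 16.1 to 20.2 CPM in KO against 12.1 to 16.0 CPM in WT. Pancreas markers summed to 6.21 to 48.5 CPM in KO and 35.1 to 220 CPM in WT, with 2 of the 6 at 0. Their part in these results was not tested.

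The genes closest in pattern to each member, by Pearson r of log2 CPM over the 32 libraries, are given as a description, since these libraries share group differences, depth and scaling. Closest to Serpina5 were Tsc22d1 (r = 0.73), Pxylp1 (0.71) and Arpin (0.70). After group means were taken out, r was 0.46, 0.08 and 0.20. Closest to Serpina3c were Lgals8 (0.77), Trim2 (0.69) and Dus4l (0.68), and to Serpina3n Atox1, Fam134b and Itfg3 (all 0.79). Serpina1 went with Smim14, Csrp1 and Adora2b (all 0.87). Serpina4 went with Rarres2 (0.92), Lrtm2 and Obp3 (both 0.91), and Serpina11 with Pon3, Tfr2 and Rnf130 (all 0.92). For Serpina11 these pairs kept the highest r within groups, 0.88, 0.79 and 0.73. Between members, Serpina1 and Serpina4 had r = 0.83 over all libraries and 0.41 within groups, and Serpina5 and Serpina3n had −0.40 over all libraries and −0.75 within groups.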

How the data were processed

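Liver RNA was sequenced in 32 libraries, 8 groups of 4. Libraries were made with a stranded mRNA kit, per the labels' protocols. The authors deposited raw counts of reads per gene and a table of log2 values. The submitters' processing notes name STAR, Cufflinks, limma and Rnor_5.0; no source used here gives their versions, the counting tool or its strand setting. Lines for reads on no feature (18.0% to 21.2%) and ambiguous reads (0.262% to 0.648%) were left out of library sizes. The deposited log2 values of 11344 genes equalled log2 CPM from the deposited counts (largest difference 5.0e-09), with no scaling between libraries.

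The 8 group means were fitted to the counts by robust quasi-likelihood in edgeR 4.0.16 (R 4.3.3) after TMM scaling and filterByExpr at a minimum count of 10. This left 24 residual degrees of freedom and a biological coefficient of variation of 0.148. The Benjamini-Hochberg adjustment covered the 11002 genes tested, within each contrast, and calls needed an adjusted p below 0.05. Replicates differed by more than counting noise (11.1 to 58.6 times the chi-square of counting alone). Alternatives were DESeq2 1.42.0, its size factors, no filter, limma 3.58.1 on the log2 values, fits to 16 libraries, the title number and leaving out each library. The pipeline was tested on simulated data. The text names all 8 members, up to 4 called genes of each list per KO against WT contrast, and the 3 genes closest in pattern. Members and lists were chosen with earlier results of these data known. Replicates are numbered in sample order and link no animals. Symbols, gene order and promoters came from RefSeq tables of GRCr8; no coordinates of the files' build were used. Reads shared between A3 serpins could not be parted.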

Additional observations from a re-analysis of the deposited data

Results flagged for a closer look

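In 7 of 48 combinations of member and group, the highest or lowest library lay far from the other 3; chance gives such a gap in about 1 group in 20. For Serpina5 these were replicate 3 of the 30-day WT males (1.28 CPM, nearest 3.34), replicate 2 of the 60-day KO males (6.88 CPM, nearest 4.83) and replicate 1 of the 60-day WT males (1.46 CPM, nearest 2.16). For Serpina3n they were replicate 3 of the 30-day WT males (2632 CPM, nearest 1502) and replicate 3 of the 60-day WT females (3183 CPM, nearest 1848). The others were Serpina4 in replicate 4 of the 30-day KO males (572 CPM, nearest 428) and Serpina11 in replicate 3 of the 30-day KO females (169 CPM, nearest 148). The 48 combinations share libraries, so 7 of 48 cannot be tested against the rate of 1 in 20.

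Replicate 3 of the 30-day WT males was at once the lowest for Serpina5 and the highest for Serpina3n in its group. Replicate 3 of the 60-day WT females likewise had the lowest Serpina5 and the highest Serpina3n of its group.

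The KO effect on Serpina3c differed between groups by a test of the difference itself: by 1.03 on the log2 scale between males and females at 60 days (edgeR adjusted p = 0.0159), and by −0.85 between 60 and 30 days in females (adjusted p = 0.0132). Neither difference was called in fits to 16 libraries (edgeR adjusted p = 0.278 and 0.0935). The difference between the sexes was also not called without replicate 3 of the 60-day WT females.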

How the results depend on the processing

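Of 1686 recomputed single results of members, 1651 kept their side of the threshold and direction of call, 27 lost their call, 8 gained one and 0 reversed; 104 changed sign where neither fit made a call. The 1686 include results with no call in the main fit, so 1651 does not give the share of calls that held. The counts of called members moved by over 1.5 times in these cases. KO against WT gave 1 called member in 60-day males with DESeq2, 2 in 30-day females and 1 in 30-day males in fits to the 16 libraries of 30 days, and 0 in 30-day females with the title number as covariate. In fits to 16 libraries, sex by genotype at 60 days gave 0 and age by genotype in females gave 0. On the deposited log2 values, 60 against 30 days in KO males gave 2. Smaller moves were 3 to 2 in 60-day females on the deposited log2 values and in the 16 libraries of that age, where Serpina3c was lost, and 4 to 3 for 60 against 30 days in WT males on the deposited values, where Serpina11 was lost. The cause was not tested.

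Leaving out 1 library at a time, called members ranged from 1 to 3 for KO against WT in 60-day females, 0 to 1 for sex by genotype at 60 days, 1 to 2 for 60 against 30 days in KO females and in WT females, and 3 to 4 in KO males. They ranged from 4 to 5 for males against females in 60-day KO rats, 3 to 4 in 60-day WT rats, and 2 to 3 for the averaged contrast. In the other comparisons the count stayed as reported. Over all genes, 30-day females gave 4 to 60 calls (fewest without KO replicate 2) and 60-day females 399 to 978 (fewest without KO replicate 1). DESeq2 size factors moved the median log2 fold change of all genes by at most −0.02 in the KO against WT comparisons. No paired analysis was possible because no label ties an animal of one group to one of another.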
